A study of Homo sapiens with 12 samples.

Results

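The genes described here encode the core proteins that make miRNAs and carry out their repression: the nuclear Microprocessor (DROSHA, DGCR8), Dicer (DICER1), the 4 Argonautes (AGO1, AGO2, AGO3, AGO4) and the 3 TNRC6 proteins (TNRC6A, TNRC6B, TNRC6C). These 10 of the 58051 genes in the count tables were found by symbol, as the machinery through which an added or blocked miRNA has to act. RNA-seq was available for 12 libraries from 3 human renal cell carcinoma lines. In 786-O (1 library per arm) and A-498 (2 per arm), cells had received a miR-29 mimic, a synthetic RNA loaded like the natural miRNA, or a control mimic. In ACHN (3 per arm), cells had received a miR-29 inhibitor, an oligonucleotide that binds and blocks the miRNA, or a control inhibitor. Every arm was transfected with its oligonucleotide at 10 nM and RNA was taken 48 h later, so the controls differ from the treated cells in the oligonucleotide and not in the transfection. Replicates of A-498 and ACHN were biological replicates by the study's methods, and each line is a single established culture. Libraries of A-498 that the study excluded for possible mislabelling were not analysed here. The line, the kind of oligonucleotide and its direction cannot be told apart between ACHN and the other lines, because each line received only a mimic or only an inhibitor.

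In miRNA biogenesis, DROSHA, a nuclear ribonuclease, and DGCR8, its RNA-binding partner, cut the hairpin out of the primary transcript, and DICER1 trims the exported hairpin to a short duplex. A strand of the duplex is loaded into an Argonaute, which is guided to target mRNAs mainly by pairing with the seed, and a TNRC6 protein bound to the Argonaute recruits the deadenylases and decapping factors that lead to decay of the target. A transfected mimic enters this route at the Argonautes and does not need DROSHA or DICER1 in the way a primary transcript does. The miR-29 family is known in kidney and other tissues for repression of collagen and other extracellular matrix transcripts.

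The 3 mature human miR-29 sequences in RefSeq (GRCh38.p14) share the same seed, bases 2 to 8, shown in capitals because every site below is its complement. By the study's methods, the mimic carries the same seed.
hsa-miR-29a-3p: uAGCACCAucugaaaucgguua
hsa-miR-29b-3p: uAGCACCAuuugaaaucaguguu
hsa-miR-29c-3p: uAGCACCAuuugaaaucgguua

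Matches to this seed were searched on the transcript strand of the longest annotated 3′ UTR of each gene, as TGGTGCT (a 7mer-m8), TGGTGCTA (an 8mer, which contains the 7mer-m8 and is counted once), GGTGCTA (a 7mer-A1) and GGTGCT (a 6mer). Of the 10 genes, 4 had at least one 7mer-m8 or 8mer: DICER1, AGO1, AGO2 and AGO3. The same held for 15.04% of 19248 protein-coding genes, and for 22.78% of the 11149 genes whose 3′ UTR was at least as long as the shortest of the 10. That shortest one, of DROSHA, has 938 nt, while those of AGO1, AGO2 and AGO3 have 10925, 11888 and 16755 nt. The second share is thus not matched to their length, and an effect of length was not tested. The sites that bear on the values below are printed here, 5′ to 3′ on the transcript strand in GRCh38, with the match in capitals. The matching stretch of AGO2 is not printed.
DICER1 8mer, chr14:95089089-95089118: gcatgcatttttcccctgttTGGTGCTAtg
AGO3 8mer, chr1:36069688-36069717: caaaaaccaaatgattttagTGGTGCTAtg
AGO3 7mer-m8, chr1:36061764-36061792: gaaagtgccttttcagaagaTGGTGCTgt
AGO1 7mer-m8 at 2821 nt, chr1:35922408-35922436: tcatgtggatttggtttaagTGGTGCTtc
AGO1 7mer-m8 at 4103 nt, chr1:35923690-35923718: ggcagggagagaggctgggtTGGTGCTct
AGO1 7mer-m8 at 5279 nt, chr1:35924866-35924894: ggtgtccagtaaacacaggtTGGTGCTca

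The DICER1 8mer lay 1400 nt past the stop codon in a 3′ UTR of 4270 nt, on the minus strand of chromosome 14. It was the only 7mer-m8 or 8mer of the 10 genes within the first 2000 nt, a stretch in which 10.69% of all protein-coding genes had one. The 3 sites of AGO1 began at 2821, 4103 and 5279 nt of 10925 nt, and the site of AGO2 at 6871 nt of 11888 nt. In AGO3 the 7mer-m8 began at 6039 nt and the 8mer at 13963 nt of 16755 nt. Not every coding isoform with a 3′ UTR held a 7mer-m8 or 8mer: 2 of 3 did for AGO1, 1 of 2 for AGO2, 1 of 3 for AGO3 and 5 of 12 for DICER1. Which isoform the cells used was not measured by counts per gene. As further matches, AGO1 had 1 7mer-A1, AGO2 had 3 7mer-A1 and 4 6mers, and AGO3 had 1 6mer. DGCR8 had a single 6mer and TNRC6B a single 7mer-A1. None of these letters was found in the 3′ UTR windows of DROSHA, AGO4, TNRC6A and TNRC6C.

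**Figure D1:**
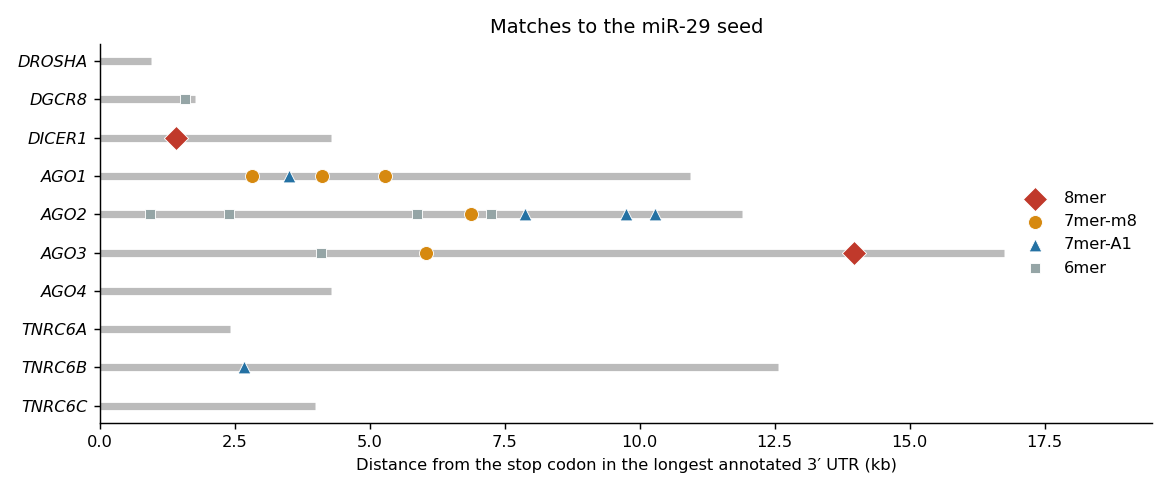
Matches to the miR-29 seed along the longest annotated 3′ UTR of each of the 10 genes, as distance from the stop codon in kb. Grey bars are the 3′ UTRs and symbols are matches of each type. DICER1 has its 8mer at 1400 nt, while the 7mer-m8 sites of AGO1, AGO2 and AGO3 start at 2821 nt or farther.

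Between 39919554 and 70027392 reads per library fell in genes, and 37.2% to 48.0% of reads had no single gene. Every pair of replicates differed by more than counting error. A panel of 7 known miR-29 targets, which include collagens and DNA methylation genes, was lower in A-498 with the mimic (7 of 7). It was higher in ACHN with the inhibitor (7 of 7), and all 7 had negative log2 ratios in 786-O. The panel was chosen with earlier results of these data known, so it is no independent check. One member, COL4A1, had no match of any searched type in its longest 3′ UTR. The 8 markers fixed for renal carcinoma lines summed to 4025 to 6824 CPM (counts scaled to the reads in genes of each library) in every library, with CA9 and NDUFA4L2 under 1 CPM in 786-O, NDUFA4L2 in A-498, and CDH6 and CA9 in ACHN. The 6 markers of leukocytes, endothelium, hepatocytes and muscle summed to 0.200 to 0.469 CPM in 786-O and ACHN and to 1.97 to 5.16 CPM in A-498, where DES was the only one over 1 CPM and CD3E was at 0. In bulk RNA such as this, fewer cells and less RNA per cell cannot be told apart.

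Among the control libraries, levels per length (RPKM, the CPM divided by the kilobases of all annotated exons) put TNRC6A first in A-498 and ACHN and DROSHA first in 786-O. In the A-498 controls TNRC6A had 11.9 ± 0.215 RPKM (SD, n = 2), ahead of DROSHA with 6.19 ± 0.00661 and AGO2 with 5.70 ± 0.0423. DGCR8 at 5.29 RPKM and AGO1 at 5.25 RPKM overlapped, as did DICER1 at 3.57 and TNRC6B at 3.48, and the order ended with AGO4 (1.64), AGO3 (1.46) and TNRC6C (1.35). In the ACHN controls TNRC6A had 10.4 ± 0.246 RPKM (SD, n = 3). DGCR8 at 6.94 and DICER1 at 6.44 RPKM overlapped, followed without overlap by DROSHA (5.61), AGO1 (4.03), AGO2 (3.70), TNRC6B (2.98), AGO4 (1.89), AGO3 (1.53) and TNRC6C (0.171). The single 786-O control library had 28.2 RPKM of DROSHA, 17.0 of TNRC6A, 15.0 of AGO2, 14.8 of DICER1 and 13.8 of TNRC6B, and 1.84 to 7.47 RPKM of the other 5 genes. DROSHA thus stood at 28.2 RPKM in 786-O against 6.19 in A-498 and 5.61 in ACHN, and TNRC6C at 1.84 and 1.35 against 0.171 in ACHN. These orders depend on the exon length given to each gene, and line and library preparation cannot be told apart in them.

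**Figure D2:**
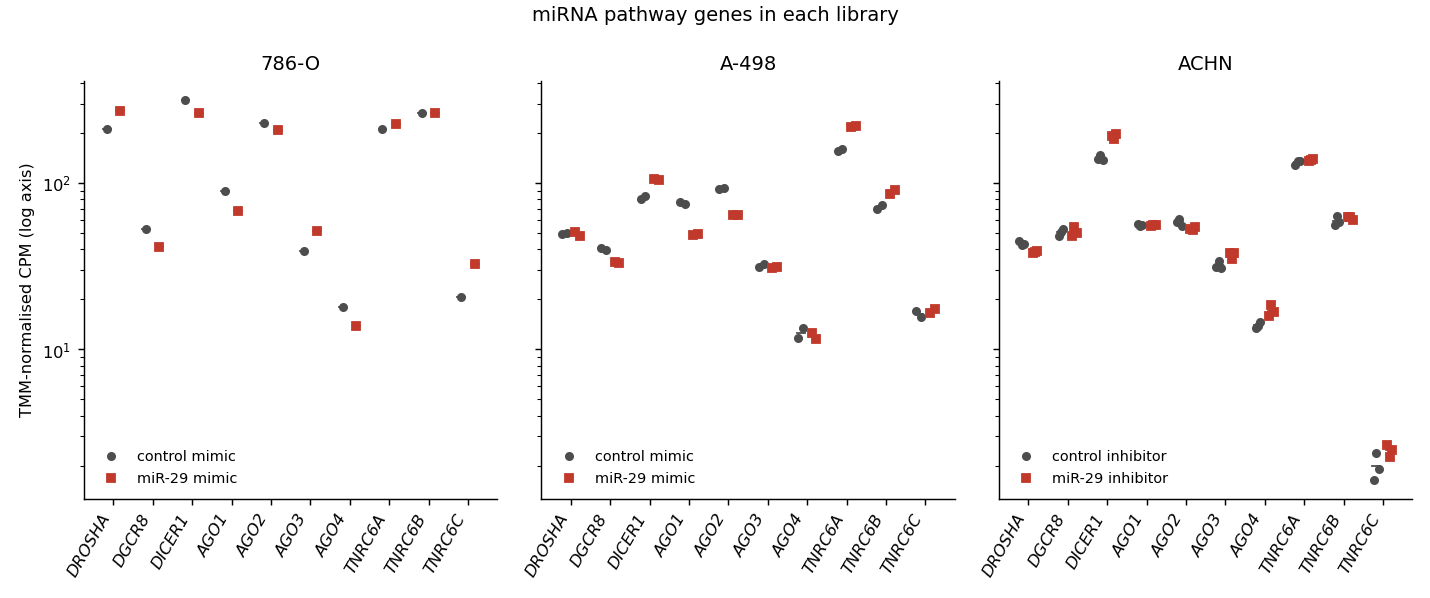
Each library's TMM-normalised CPM of the 10 genes, on a log axis, for control (grey circles) and treated (red squares) cells in each line; short lines are group means. In A-498 the mimic libraries lie below the controls for DGCR8, AGO1 and AGO2 and above them for DICER1, TNRC6A and TNRC6B, and in ACHN DICER1 lies higher in all 3 inhibitor libraries.

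Each line was then compared with its own control, which addressed whether the level of the machinery itself moves when miR-29 activity is added or blocked. The tests below are edgeR quasi-likelihood tests fitted across all genes, with Benjamini-Hochberg adjustment over all genes tested and calls at an adjusted p under 0.05. All 10 genes passed the filter on low counts in each comparison. In A-498, 3 of the 10 fell (DGCR8, AGO1, AGO2) and 3 rose (DICER1, TNRC6A, TNRC6B) with the mimic, in a line where 27.0% of 19676 genes were lower and 25.5% higher. In ACHN, 2 fell (DROSHA, AGO2) and 3 rose (DICER1, AGO3, AGO4) with the inhibitor, where 14.4% of 17904 genes were lower and 17.3% higher. In 786-O, with no test, 0 of 10 had a log2 ratio under -0.5 and 1 (TNRC6C) a ratio over 0.5, against 21.8% and 19.2% of 20370 genes. Counted in either direction, 6 of the 10 were called in A-498, where 52.5% of all genes were, 5 of the 10 in ACHN, where 31.7% were, and 1 of the 10 passed the 0.5 limit in 786-O, where 40.9% did. The A-498 share is close to that of all genes. In 786-O the 10 genes had 621 to 14143 reads per library. The share of all genes there covers any gene with at least 10 counts over both libraries. The 2 shares are therefore not at a like depth. In A-498 and ACHN, here and below, the shares of all genes cover every gene that passed the filter and were not matched for depth. The median log2 fold change of the 10 was -0.02 in A-498 and 0.05 in ACHN, beside medians of 0.0045 and 0.0038 over all genes.

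**Figure D3:**
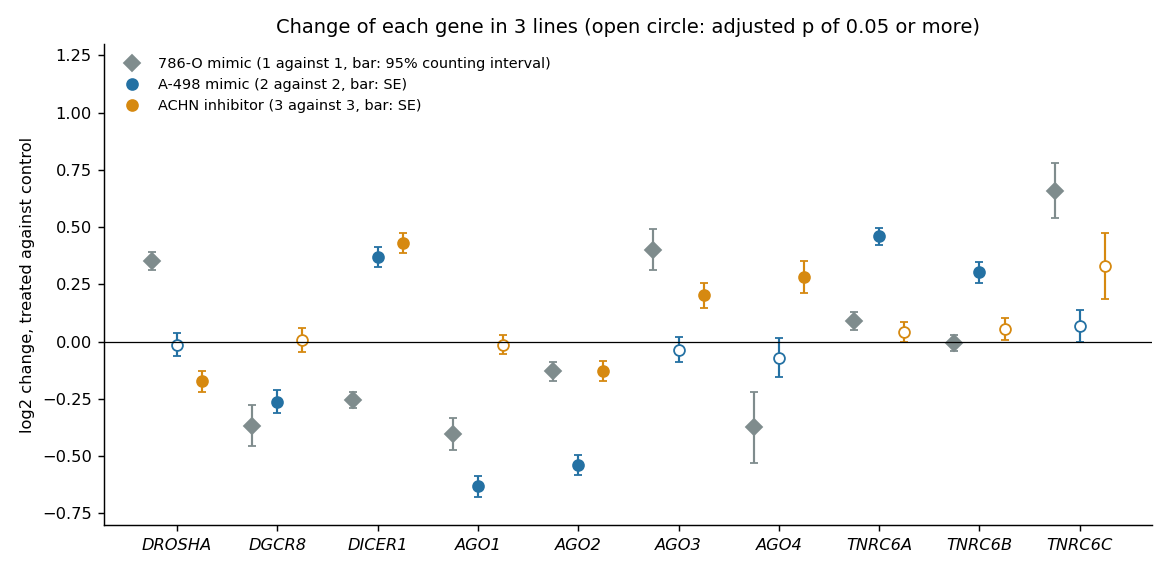
Log2 change of each gene with treatment, as the ratio of 1 library to 1 in 786-O (grey diamonds, bars are 95% counting intervals) and as the edgeR fold change in A-498 and ACHN (circles, bars are SE). Filled circles had an adjusted p under 0.05; DICER1 is at 0.37 with the mimic in A-498 and at 0.43 with the inhibitor in ACHN, and AGO1 at -0.63 in A-498 and -0.01 in ACHN.

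DICER1 (ENSG00000100697, chromosome 14, 95086228 to 95158010, minus strand, GRCh38), the cytoplasmic ribonuclease, rose both with the mimic in A-498 and with the inhibitor in ACHN. In A-498 its level was 80.3 and 83.7 CPM in the control libraries and 107 and 105 CPM in the mimic libraries. Both mimic libraries lay above both controls. It rose by 0.37 on the log2 scale (SE 0.0428, edgeR adjusted p = 5.02e-06), or 1.29-fold, and it was called under all 8 alternatives. In ACHN the controls had 139.9, 148 and 139 CPM and the inhibitor libraries 193, 184 and 198 CPM, again with no overlap. The rise was 0.43 on the log2 scale (SE 0.0452, edgeR adjusted p = 7.90e-07), or 1.35-fold, called under all 11 alternatives. In 786-O, DICER1 had 318 CPM in the control library and 266 CPM in the mimic library, a log2 ratio of -0.26 with a 95% exact binomial (Clopper-Pearson) interval of -0.29 to -0.22 that covers counting error only. DICER1, whose longest 3′ UTR holds an 8mer, thus had opposite signs of change with the mimic in 786-O and A-498. These counts are per gene and do not separate isoforms with the 8mer from those without it.

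DROSHA (ENSG00000113360, chromosome 5, 31400494 to 31532196), the nuclear ribonuclease, was not called in A-498, with 49.8 and 49.9 CPM in controls and 50.9 and 47.9 CPM with the mimic. Those groups overlap, and the log2 fold change of -0.01 (SE 0.0499) had an edgeR adjusted p of 0.850. In ACHN the controls had 45.0, 42.3 and 43.3 CPM and the inhibitor libraries 37.9, 38.6 and 39.4 CPM, all below the lowest control. The log2 fold change there was -0.17 (SE 0.0458, edgeR adjusted p = 0.00730), and without the first control library the adjusted p was 0.0541. In 786-O the level was 213 CPM in the control and 272 CPM in the mimic library, a log2 ratio of 0.35 (counting interval 0.31 to 0.39).

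DGCR8 (ENSG00000128191, chromosome 22, 20080221 to 20111877), the RNA-binding partner of DROSHA, had 40.7 and 39.6 CPM in the A-498 controls and 33.6 and 33.3 CPM with the mimic, with no overlap. It fell by 0.26 on the log2 scale (SE 0.0514, edgeR adjusted p = 6.39e-04), with a highest adjusted p of 0.0123 over 8 alternatives. The ratio of the 786-O libraries, 53.1 CPM in the control and 41.1 CPM with the mimic, was -0.37 on the log2 scale (counting interval -0.46 to -0.28). ACHN showed overlapping values of 48.1 to 53.0 CPM in controls and 48.4 to 54.3 CPM with the inhibitor (0.0070 on the log2 scale, SE 0.0507, edgeR adjusted p = 0.936). A lncRNA on the opposite strand covers 7.18% of the DGCR8 exons, and the deposited counts are labelled as made on the reverse strand of a stranded kit.

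AGO1 had the largest change of the 10 genes in A-498. AGO1 (ENSG00000092847, chromosome 1, 35869808 to 35930532) encodes an Argonaute that binds guide RNAs and lacks efficient slicing. Its level in A-498 was 77.5 and 75.3 CPM in controls and 48.7 and 49.9 CPM with the mimic, so that the mimic libraries lay far below the controls. AGO1 thereby changed by -0.63 on the log2 scale (SE 0.0461, edgeR adjusted p = 4.13e-08), or 0.645-fold, and was called under all 8 alternatives. In 786-O the libraries had 90.5 and 68.4 CPM, a log2 ratio of -0.40 (counting interval -0.47 to -0.33). With the inhibitor in ACHN no change was detected: the controls had 57.2, 55.5 and 56.5 CPM and the inhibitor libraries 55.3, 56.4 and 56.0 CPM (log2 fold change -0.01, SE 0.0403, edgeR adjusted p = 0.853).

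AGO2 (ENSG00000123908, chromosome 8, 140520156 to 140635633), the human Argonaute best known for slicing, fell in both replicated lines. In A-498 it had 93.0 and 94.0 CPM in controls and 64.2 and 64.4 CPM with the mimic, with wide separation of the groups. AGO2 changed by -0.54 on the log2 scale (SE 0.0426, edgeR adjusted p = 9.79e-08), or 0.688-fold, called under all 8 alternatives. In ACHN the controls had 59.0, 61.0 and 55.6 CPM and the inhibitor libraries 53.5, 52.7 and 54.6 CPM, all below the lowest control by a small margin. This change was -0.13 on the log2 scale (SE 0.0442, edgeR adjusted p = 0.0353), and this call held in only 6 of 11 alternatives. Leaving out the first control library gave an adjusted p of 0.116 and leaving out the second gave 0.188. It was 0.0757 without the first inhibitor library, 0.0594 without the third and 0.124 with no filter on low counts. In 786-O the libraries had 231 and 211 CPM, a log2 ratio of -0.13 (counting interval -0.17 to -0.09).

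AGO3 and AGO4, the Argonautes with the lowest levels per length in the A-498 and ACHN controls, rose with the inhibitor in ACHN and were not called in A-498. AGO3 (ENSG00000126070, chromosome 1, 35930718 to 36072500) had 31.5, 34.3 and 31.0 CPM in the ACHN controls and 38.3, 35.0 and 37.9 CPM with the inhibitor. Every inhibitor library lay above the highest control, and AGO3 rose by 0.20 on the log2 scale (SE 0.0539, edgeR adjusted p = 0.00707). AGO4 (ENSG00000134698, chromosome 1, 35808016 to 35857890) had 13.5, 13.8 and 14.6 CPM in the ACHN controls and 15.8, 18.5 and 16.7 CPM with the inhibitor, also with no overlap. AGO4 rose by 0.28 on the log2 scale (SE 0.0700, edgeR adjusted p = 0.00431). Both calls held under all 11 alternatives. In A-498, AGO3 had 31.3 and 32.5 CPM in controls against 31.0 and 31.3 CPM (log2 fold change -0.03, SE 0.0543, edgeR adjusted p = 0.628), and AGO4 had 11.7 and 13.6 against 12.6 and 11.5 CPM (log2 fold change -0.07, SE 0.0856, adjusted p = 0.531). The 786-O ratios had opposite signs, 0.40 for AGO3 (39.1 to 51.6 CPM) and -0.37 for AGO4 (18.0 to 13.9 CPM). AGO4, AGO1 and AGO3 lie in this order next to each other on the plus strand of chromosome 1, between 35808016 and 36072500, and had log2 fold changes of -0.07, -0.63 and -0.03 in A-498 and 0.28, -0.01 and 0.20 in ACHN.

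TNRC6A (ENSG00000090905, chromosome 16, 24610209 to 24827632) and TNRC6B (ENSG00000100354, chromosome 22, 40044817 to 40335808), scaffolds that link Argonautes to the deadenylases, rose with the mimic in A-498. TNRC6A had 158 and 162 CPM in the controls and 219 and 220.3 CPM in the mimic libraries, with no overlap. TNRC6A rose by 0.46 on the log2 scale (SE 0.0371, edgeR adjusted p = 1.20e-07), or 1.38-fold. TNRC6B had 70.5 and 73.6 CPM in controls and 86.9 and 90.9 CPM with the mimic, and rose by 0.30 on the log2 scale (SE 0.0457, edgeR adjusted p = 6.46e-05). Both were called under all 8 alternatives. In ACHN the groups overlapped for both. TNRC6A ranged from 129.7 to 137 CPM in controls and from 137 to 140.2 CPM with the inhibitor (0.04 on the log2 scale, edgeR adjusted p = 0.510), and TNRC6B from 56.4 to 63.7 and from 60.3 to 62.5 CPM (log2 fold change 0.05, adjusted p = 0.440). The 786-O ratios were 0.09 for TNRC6A (214 and 228 CPM, counting interval 0.05 to 0.13) and -0.0056 for TNRC6B (267 and 266 CPM, counting interval -0.04 to 0.03).

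TNRC6C (ENSG00000078687, chromosome 17, 77958703 to 78108822), the third scaffold, had the largest ratio of the 10 genes in 786-O. It had 20.8 CPM in the control library and 32.8 CPM in the mimic library, a log2 ratio of 0.66 (counting interval 0.54 to 0.78). In A-498 the controls had 17.0 and 15.6 CPM and the mimic libraries 16.7 and 17.5 CPM, which overlap (log2 fold change 0.07, SE 0.0700, edgeR adjusted p = 0.441). ACHN had few reads of this gene, 76 to 101 per control library and 118 to 173 per inhibitor library. Its levels there were 1.64, 2.40 and 1.90 CPM in controls and 2.67, 2.25 and 2.50 CPM with the inhibitor, overlapping by the second control library. The log2 fold change of 0.33 (SE 0.144) was not called (edgeR adjusted p = 0.0918), and it moved with single libraries, to 0.48 without the second control library (adjusted p = 0.0252) and to 0.20 without the first (adjusted p = 0.394). TMC6 on the opposite strand covers 12.3% of the TNRC6C exons.

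The A-498 and ACHN comparisons share no library, so calls can be set side by side. Of the 10 genes, 0 fell with the mimic and rose with the inhibitor, against 10.5% of the 16708 genes tested in both lines, and 0 did the reverse (7.37%). Both counts were also 0 in edgeR at an unadjusted p under 0.05 in each line and in DESeq2. Of the 6 genes called in A-498, DGCR8, AGO1, TNRC6A and TNRC6B were not called in ACHN, and AGO2 and DICER1 had the same direction in both lines. AGO2 was lower in both lines, as were 2.56% of genes, and DICER1 was higher in both, as were 2.80%. The 4 genes with a 7mer-m8 or 8mer therefore had log2 fold changes of 0.37 and 0.43 (DICER1), -0.63 and -0.01 (AGO1), -0.54 and -0.13 (AGO2) and -0.03 and 0.20 (AGO3) in A-498 and ACHN.

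Whether the mimic acted alike in its 2 lines was tested in edgeR as a line by treatment interaction. With 1 library per arm in 786-O, only A-498 gives that test its spread. The effect differed for 8 of the 10 genes, beside 29.6% of 22587 genes. All genes that passed the filter on low counts enter that share, which was not matched to the depth of the 10. Of 63 partner genes from the lists described below, the effect was lower in 786-O for 12 (19.0%) and higher for 15 (23.8%). For DICER1 the effect was lower in 786-O by 0.58 on the log2 scale (SE 0.0700, adjusted p = 2.37e-06), and TNRC6A (-0.32, adjusted p = 9.03e-04) and TNRC6B (-0.26, adjusted p = 0.00919) were also less positive there. It was higher in 786-O for TNRC6C by 0.64 (adjusted p = 3.35e-04), for AGO3 by 0.48 (5.86e-04), for AGO2 by 0.46 (4.04e-05), for DROSHA by 0.41 (2.66e-04) and for AGO1 by 0.27 (adjusted p = 0.0149). DGCR8 (-0.06, SE 0.0929, adjusted p = 0.697) and AGO4 (-0.26, SE 0.146, adjusted p = 0.204) were not called different. The AGO1 call was lost without the first mimic library of A-498 (adjusted p = 0.341), without the second (0.0683) and with library size in place of TMM (0.116). The TNRC6B call was lost without the second mimic library (0.123), and AGO4 was called without the A-498 control library numbered 3 (difference -0.46, adjusted p = 0.00382). Differences come from a joint fit of 6 libraries and need not equal the subtraction of the values of each line.

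Summed over each family, the Argonautes had 14.0 ± 0.146 RPKM (SD, n = 2) in the A-498 controls and 10.2 ± 0.0251 RPKM with the mimic, while the TNRC6 genes had 16.7 ± 0.240 and 21.9 ± 0.249 RPKM. In ACHN the Argonaute sum was 11.1 ± 0.158 RPKM (SD, n = 3) in controls and 11.6 ± 0.152 RPKM with the inhibitor, and the TNRC6 sum 13.6 ± 0.416 and 14.2 ± 0.132 RPKM. The 786-O libraries had Argonaute sums of 26.1 and 23.8 RPKM and TNRC6 sums of 32.6 and 35.6 RPKM, in the order control and mimic. No test was made of these sums. AGO2 made up 40.6% ± 0.120 (SD, n = 2) of the Argonaute sum in the A-498 controls and 38.1% ± 0.143 with the mimic, a difference of -2.48 percentage points. The two-sided exact permutation p was 0.3333, the smallest that 2 against 2 allows, so this design could not reach 0.05. In ACHN its share was 33.2% ± 1.10 (SD, n = 3) in controls and 29.7% ± 0.597 with the inhibitor, a difference of -3.57 points with an exact permutation p of 0.1, the smallest for 3 against 3. The share was lower in every treated library than in every control library of both lines. It was 57.6% and 59.2% in the control and mimic libraries of 786-O.

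**Figure D4:**
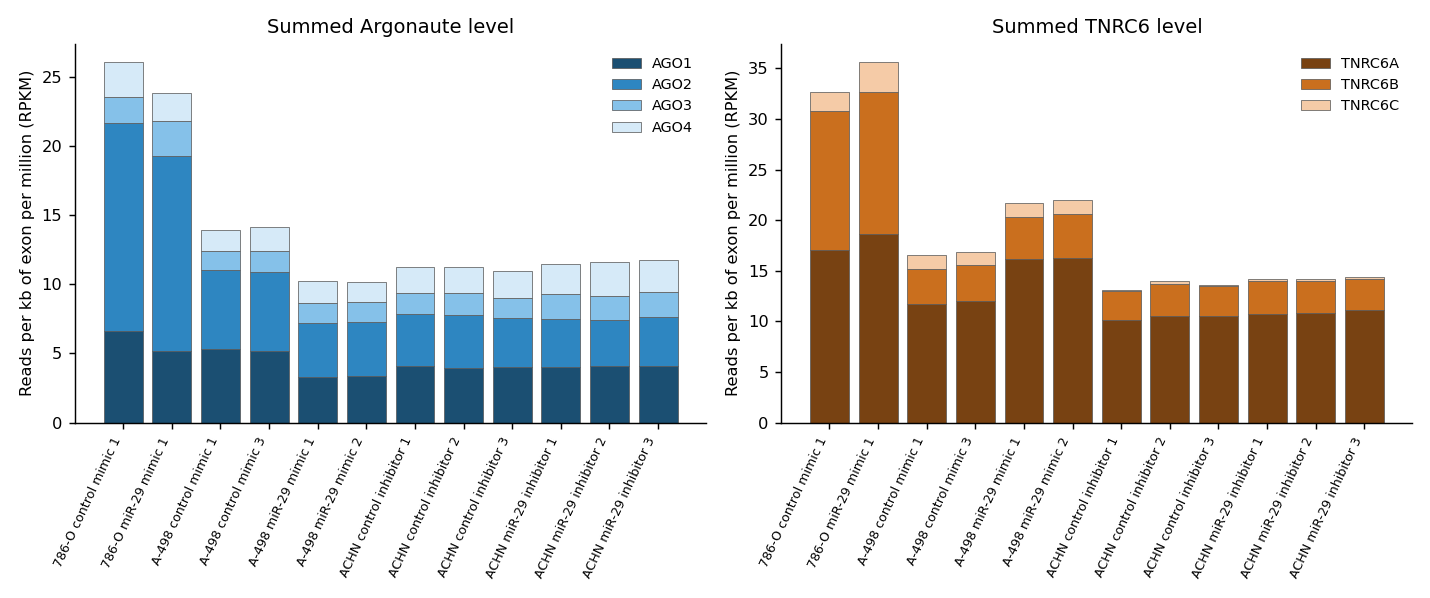
Stacked levels per length (RPKM) of the Argonaute genes (left) and TNRC6 genes (right) in each of the 12 libraries; each bar is a library and starts at 0. The A-498 Argonaute sum is near 14.0 RPKM in controls and 10.2 RPKM with the mimic, and AGO2 is the largest segment in 786-O.

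Genes whose pattern over the 12 libraries was most like that of AGO1, the most changed of the 10 in A-498, and of DICER1, the most changed in ACHN, were found among 9922 genes by Pearson's r of log2 CPM. For AGO1 these were TADA2B (r = 0.986), SRD5A1 (0.982) and AKT2 (0.976), and for DICER1 they were TMEM230 (0.989), ABLIM1 (0.983) and RNF10 (0.982). The values describe 12 libraries that fall into 3 lines, so differences between lines enter them along with those of treatment.

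The partners of the core proteins were followed as 5 lists of 65 genes, of which 62 were tested in A-498 and ACHN. LIN28A, LIN28B and TRIM71, which act on the let-7 route, were too low to test in either line. In A-498, 15 genes of the 62 (24.2%) fell and 23 (37.1%) rose with the mimic, beside 27.0% and 25.5% of all genes. In ACHN, 21 (33.9%) fell and 8 (12.9%) rose with the inhibitor, beside 14.4% and 17.3% of all genes. With library size in place of TMM the A-498 counts were 11 (17.7%) and 28 (45.2%), beside 22.1% and 31.5% of all genes. Without the second mimic library they were 11 (17.7%) and 15 (24.2%), beside 21.9% and 19.0% of all genes. The median log2 fold change over the lists was 0.01 in A-498 and -0.07 in ACHN, beside 0.0045 and 0.0038 over all genes.

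Among nuclear processing and export partners (13 genes), 3 fell and 4 rose in A-498, close to the 27.0% and 25.5% of all genes there, and 5 fell and 2 rose in ACHN (14.4% and 17.3% of all genes). XPO5, the exportin that carries precursor hairpins to the cytoplasm, fell from 70.0 ± 1.32 to 45.5 ± 0.727 CPM (SD, n = 2) with the mimic in A-498 (log2 fold change -0.62, SE 0.0467, edgeR adjusted p = 5.88e-08). Its ratio in 786-O was -1.07 (183 to 87.2 CPM), and in ACHN it was not called (0.02, adjusted p = 0.711). ERH, a small partner of the Microprocessor, fell by 0.19 in A-498, and KHSRP, an RNA-binding protein that promotes processing of some precursors, rose by 0.28 in A-498 and fell by 0.26 in ACHN. SRRT (ARS2), which links capped transcripts to processing, rose by 0.20 in A-498. In ACHN, SAFB fell by 0.19, ADARB1, an RNA-editing enzyme, rose by 0.45 and DDX17, a Microprocessor helicase, rose by 0.16.

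Among Dicer partners and loading factors (11 genes), 2 fell and 5 rose in A-498, beside 27.0% and 25.5% of all genes. In ACHN 5 fell and 0 rose, beside 14.4% and 17.3% of all genes, and the rises were also 0 in edgeR at an unadjusted p under 0.05 and in DESeq2. The falls in A-498 were FMR1 (-0.16) and IPO8 (-0.12), an importin that binds Argonautes, and the largest rises were TSNAX (0.33), a subunit of the C3PO nuclease, and HSPA8 (0.32). Neither fall was called with library size in place of TMM, where the count was 0. In ACHN the falls were led by HSP90AA1 (1597 ± 108 to 1069 ± 103 CPM, SD, n = 3, log2 fold change -0.58, edgeR adjusted p = 2.26e-07) and its co-chaperone PTGES3 (-0.40). These genes encode general chaperones, with many clients besides Argonautes, and near-identical copies of HSP90AA1 and HSPA8 elsewhere in the genome can share their reads. Of the genes for precursor tailing and turnover (6 tested of 9), TENT2, a nucleotidyltransferase, rose by 0.35 in A-498. PNPT1, a mitochondrial exonuclease, rose by 0.31 there and fell by 0.27 in ACHN, where ZSWIM8, the ligase adaptor of target-directed miRNA decay, rose by 0.35 (edgeR adjusted p = 5.12e-05).

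Deadenylation genes (14) showed 5 falls and 5 rises in A-498, where 27.0% and 25.5% of all genes were called, and 8 falls and 2 rises in ACHN, where 14.4% and 17.3% were. CNOT8, a catalytic subunit of CCR4-NOT, fell by 0.70 in A-498 (66.5 to 41.0 CPM, SE 0.0487, edgeR adjusted p = 2.64e-08) and rose by 0.17 in ACHN. PAN2, the catalytic subunit of PAN2-PAN3, fell by 0.56 in A-498 (38.4 to 26.0 CPM, adjusted p = 6.44e-07) and rose by 0.45 in ACHN (44.2 to 60.4 CPM, adjusted p = 2.25e-07). CNOT6, another catalytic subunit, and PABPC4, a poly(A)-binding protein, rose in A-498 by 0.63 and 0.56, and PABPC4 and CNOT10 fell in ACHN by 0.37 and 0.30.

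Among decapping, repression and decay genes (18), 5 fell and 6 rose in A-498, and 2 fell and 3 rose in ACHN, both close to the shares of all genes (27.0% and 25.5% in A-498, 14.4% and 17.3% in ACHN). DCP2, the decapping enzyme, had the largest change of the 62 in both lines. It went from 117 ± 6.42 to 55.0 ± 1.48 CPM (SD, n = 2) with the mimic in A-498 (log2 fold change -1.09, SE 0.0488, edgeR adjusted p = 2.50e-10). In ACHN it went from 62.4 ± 2.75 to 166 ± 6.37 CPM (SD, n = 3) with the inhibitor (log2 fold change 1.41, SE 0.0499, edgeR adjusted p = 5.06e-13), and in 786-O from 243 to 51.9 CPM, a log2 ratio of -2.22. LSM14A, a P-body protein, fell by 0.63 in A-498, and GIGYF1 and DCP1B rose there by 0.76 and 0.65. EIF4E2, the cap-binding repressor, rose by 0.53 in ACHN (adjusted p = 3.58e-08), where DCP1A fell by 0.15 and DDX6, a helicase that binds CCR4-NOT, fell by 0.13.

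Of the 62 genes, 6 (9.68%) fell with the mimic and rose with the inhibitor, beside 10.5% of all genes: CNOT8, DCP2, DDX17, EIF4E2, PAN2 and XRN1. A larger number, 8 (12.9%), rose with the mimic and fell with the inhibitor, beside 7.37% of all genes: CNOT6, CNOT10, HSPA8, KHSRP, PABPC1, PABPC4, PNPT1 and SRRT. CNOT6L and DDX6 fell in both lines (2.56% of all genes did), and ADARB1 rose in both (2.80% of all genes). DCP2 and PAN2 are the 2 genes of the 5 lists with an 8mer in the longest 3′ UTR, at 1536 nt and 133 nt past the stop codon. Other isoforms of the listed genes were not searched. The DCP2 and PAN2 sites are printed for comparison with the DICER1 8mer above.
DCP2 8mer, chr5:113015000-113015029: taatgaaagtgtcaccctttTGGTGCTAag
PAN2 8mer, chr12:56317467-56317496: tcagggtctagggtcacagaTGGTGCTAtt

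Every 8mer has these capital letters by definition. DCP2, PAN2 and DICER1 had log2 fold changes of -1.09, -0.56 and 0.37 in A-498. In ACHN, in the same order, they had 1.41, 0.45 and 0.43. AGO3 also has an 8mer, at 13963 nt, and had -0.03 in A-498 (not called) and 0.20 in ACHN.

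**Figure D5:**
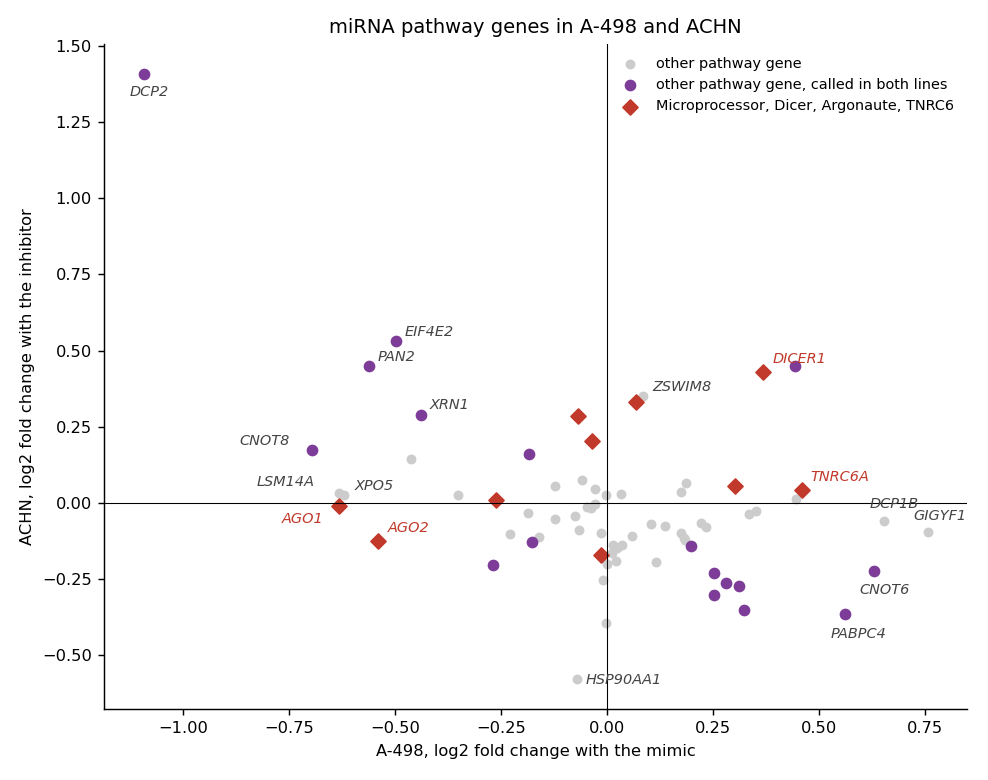
Log2 fold change with the mimic in A-498 (x axis) against that with the inhibitor in ACHN (y axis) for the 62 partner genes (circles, purple where called in both lines) and the 10 core genes (red diamonds). DCP2 is at -1.09 and 1.41 in the upper left, and DICER1 at 0.37 and 0.43 in the upper right.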

How the data were processed

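The authors prepared stranded, ribosomal RNA-depleted libraries (100 bp paired reads), aligned them to GRCh38 with HISAT2 and deposited raw counts per Ensembl v87 gene from HTSeq-count (strict intersection). Symbols came from GENCODE v44 (98.1% of 58051 genes). The 3 deposited DESeq2 tables hold the authors' own fold changes and p-values and were not used. From the counts, edgeR 4.0.16 (R 4.3.3) gave quasi-likelihood tests per line after TMM and filterByExpr, with no block. CPM values are TMM-scaled within a line, and RPKM uses TMM over 12 libraries and the union of GENCODE v44 exons. In 786-O, log2 ratios used a prior count of 2, for genes with at least 10 counts. The 786-O intervals cover counting error only, since each arm had 1 library. No molecular identifiers were described, so copies of the same molecule cannot be told apart in the counts. Partner genes named were, per list and line, up to 2 called lower and 2 higher with the largest change and average log2 CPM of at least 3. The fit was tested on simulated data. Alternatives were RLE factors, library size, no filter, DESeq2 1.42.0, a replicate block and each library left out. Sites were read back from GRCh38, 12 of 12. The genes and lists were chosen with earlier results of these data known.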

Additional observations from a re-analysis of the deposited data

Results flagged for a closer look

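For 8 of the 10 genes the response to the mimic was not the same in its 2 lines, by the edgeR interaction test at an adjusted p under 0.05. The same held for 29.6% of 22587 genes, a share not matched to the depth of the 10, and for 12 (lower in 786-O) and 15 (higher) of 63 partner genes. The differences, 786-O minus A-498 on the log2 scale, were 0.41 for DROSHA, -0.58 for DICER1, 0.27 for AGO1, 0.46 for AGO2, 0.48 for AGO3, -0.32 for TNRC6A, -0.26 for TNRC6B and 0.64 for TNRC6C. For DICER1 the sign of the change itself was opposite, with a ratio of -0.26 in 786-O and a log2 fold change of 0.37 in A-498. The test takes its spread from A-498, and the spread of 786-O, with 1 library per arm, was not measured. The count was also 8 with no filter, and in a joint fit of all 12 libraries. The spread in that joint fit comes from A-498 and ACHN, so it does not measure that of 786-O either. With library size in place of TMM the count was 7, and it changed when some of the A-498 libraries were left out. The AGO1 call held in 4 of 7 alternatives and that of TNRC6B in 6 of 7.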

How the results depend on the processing

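The 6 calls among the 10 genes in A-498 held under RLE factors, library size, no filter, DESeq2, an adjusted p under 0.01 and the omission of each library. Over all genes, library size in place of TMM changed the A-498 split from 5313 lower and 5015 higher to 4352 and 6191. In ACHN, the count of genes that fell, 2 of 10, was 1 with no filter, 1 at an adjusted p under 0.01, and 0 to 2 when a library was left out, while the count that rose was 3 or 4. Log2 values changed sign only for genes not called, or, in 786-O, for TNRC6B (0.019 with library size, against -0.0056). In A-498 the genes that changed sign were DROSHA (0.063), AGO3 (0.042) and AGO4 (0.0070) with library size. When a library was left out, DROSHA ranged from -0.067 to 0.029, AGO4 from -0.18 to 0.032 and TNRC6C from -0.0051 to 0.12. In ACHN, DGCR8 was -0.0012 with RLE factors, -0.0042 with library size, -0.0011 with DESeq2 and -0.047 to 0.036 when a library was left out. For the lists, falls among Dicer partners in A-498 numbered 0 with library size and 1 with DESeq2, against 2, and those of tailing genes in ACHN numbered 2 with library size, against 1. With the first 2000 nt of the 3′ UTR alone, 1 gene had a seed match, against 4. The cause of these changes was not tested, and this includes the smaller sample where a library was left out. Over the alternatives, the AGO2 share of treated minus control libraries lay between -2.58 and -2.38 percentage points in A-498, and between -4.18 and -3.11 for the ACHN inhibitor. The share itself depends on the length scaling, and from CPM without length it was 61.0% and 61.2% in the 786-O control and mimic libraries, against 57.6% and 59.2%. In ACHN, same-numbered libraries did not deviate together (r = 0.042, -0.050 and -0.0047), so the numbers were not taken as pairs, and with the replicate block 2 genes fell and 3 rose, as without it (DICER1 0.43, adjusted p = 9.45e-08), and 2638 and 3125 over all genes. No paired analysis was possible in A-498 because its arms share only 1 replicate number. Depth limits TNRC6C in ACHN, which had 76 to 173 reads per library.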

Other observations

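In the 786-O libraries, 2 partner genes outside the naming rule for that line, chosen after their values were seen, had log2 ratios over 1.5: CNOT7, a catalytic subunit of CCR4-NOT, went from 35.9 to 118 CPM (1.72), and HSP90AA1 from 957 to 3022 CPM (1.66). In A-498 the same genes had log2 fold changes of -0.00045 and -0.07, neither called (edgeR adjusted p = 0.994 and 0.0818). With the inhibitor in ACHN they had -0.20 and -0.58, both called lower (edgeR adjusted p = 0.00431 and 2.26e-07). The 786-O values rest on 1 library per arm and have no replicate check.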
